A study of Mus musculus with 10 samples.

Results

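The insulin receptor and the FOXO transcription factors stand at opposite ends of the pathway by which a cell reads the insulin in its surroundings. The 10 genes described here were Insr, Irs1, Irs2, Pik3r1, Pik3ip1, Akt1, Akt2, Foxo1, Foxo3 and Foxo4. They were chosen by name, found in the table of read counts by their Ensembl identifiers, and make up 10 of the 46983 genes listed there. All 10 had enough reads to be among the 15949 genes tested.

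Insulin binds its receptor, a tyrosine kinase, and the receptor phosphorylates adaptor proteins (IRS) that recruit PI3-kinase to the membrane. PI3-kinase makes a membrane lipid that activates the AKT kinases, and AKT phosphorylates FOXO factors, which then leave the nucleus and no longer switch on their target genes. In endothelial cells (ECs) the pathway also activates nitric oxide synthase, and FOXO1 is known as a regulator of endothelial growth and quiescence. These steps run largely through phosphorylation, whereas the assay measured RNA, so the values below are levels of the transcripts and not the activity of the pathway.

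The study asked how a ketogenic diet, which is very low in carbohydrate, alters gene expression in the ECs of the heart. Male wild-type C57BL/6J mice entered the experiment at 8 weeks of age and ate freely for 14 days either a control diet with 11.6% of its energy as fat (5 mice) or a ketogenic diet with 89.5% (5 mice). Cells of each heart were bound to magnetic beads through the endothelial surface protein CD31, and 1 library of polyadenylated RNA was sequenced per mouse. The libraries held 10885154 to 12710861 reads on genes, no gene had more than 14973 reads in a library, and no pair of mice had counts close enough to come from the same library. The 10 endothelial markers, among them Pecam1 (the gene of CD31), Cdh5 and Kdr, were present in every mouse. They summed to 5288 to 5731 CPM, reads scaled to a fixed library size, on the control diet and 5108 to 5684 on the ketogenic diet. None of them passed the test for a difference between the diets after adjustment. At an unadjusted p under 0.05, 1 was higher on the ketogenic diet (Kdr) and 1 lower (Vwf), and 8 of the 10 had a lower estimate on the ketogenic diet. Raw reads of several markers hardly varied between libraries (Pecam1 6770 to 7020, Cdh5 7356 to 7571, Tie1 7460 to 7746), unlike Kdr (7281 to 9501) and Erg (2154 to 2931). Scaling alone then lowers their values in deeper libraries, and median depth was 11285659 in control and 11837379 in ketogenic mice. For such markers a lower estimate cannot be read as fewer ECs, and the cause was not tested.

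The cells were not free of other types, and some markers of these differed between the diets, mostly at an unadjusted p only. Of 9 cardiomyocyte markers tested, 6 were higher on the ketogenic diet at an unadjusted p under 0.05, none passed after adjustment, and their summed level was 508 to 638 CPM in control and 602 to 871 in ketogenic mice. Platelet markers summed to 403 to 655 against 187 to 481 CPM, with 4 of 5 lower at an unadjusted p under 0.05. Macrophage markers summed to 205 to 730 against 184 to 331 CPM, with 4 of 9 lower at that threshold and 2 of 9 with a higher estimate. The 730 CPM came from control mouse 1 alone, and the other control mice had 205 to 324 CPM. Lymphocyte markers summed to 199 to 290 against 152 to 192 CPM, with 3 of 6 lower at that threshold and the B cell gene Cd79a passing after adjustment. Markers of fibroblasts, of smooth muscle and pericytes, and of red blood cells gave no gene with an unadjusted p under 0.05. Their sums overlapped between the diets (705 to 783 against 681 to 830 CPM, 2503 to 2704 against 2432 to 2688 CPM, and 265 to 320 against 295 to 310 CPM). The cardiomyocyte, platelet and macrophage sums also overlapped between the diets, and the lymphocyte sums did not. Some red blood cell and smooth muscle or pericyte markers had nearly constant raw reads (Hba-a1 97 to 98, Hba-a2 98 to 101, Rgs5 7457 to 7691, Tagln 2083 to 2177). Others varied (Alas2 1973 to 2648, Cnn1 757 to 1225). For the nearly constant genes, the lack of a difference says little about the content of those cells. The 5 adipocyte markers summed to at most 1.79 CPM in any mouse. In bulk RNA, fewer cells of a type and less RNA per cell cannot be told apart, and the part of these other cells in the levels of the 10 genes was not tested apart from the fits with marker scores described at the end.

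Short sequences near the gene starts are shown because FOXO factors are known to bind such motifs, and because insulin pathway genes are themselves among the genes that FOXO factors are known to switch on. The letters CAAAACA, the core of the insulin response element, and GTAAACA, the core of the DAF-16 family binding element, were searched on both strands in RefSeq windows from 250 bases before to 50 bases after each gene start. Windows were at hand for 8 of the 10 genes, 13 windows in all. The windows of Irs1 and Irs2 held the first motif and that of Akt1 the second, each written here 5′ to 3′ on the strand of the gene, with the match in capitals and read on the opposite strand (mouse build GRCm38.p6).
Irs1, chr1:82291534-82291560, minus strand, 111 bases before the start: ctccgtcacgTGTTTTGctcctctgga
Irs1, chr1:82291455-82291481, minus strand, 32 bases before the start: agccgccgctTGTTTTGgttggggctc
Irs2, chr8:11008950-11008976, minus strand, 37 bases before the start: agtcacgtgtTGTTTTGctcttagttc
Akt1, chr12:112675029-112675055, minus strand, 161 bases before the start: tctaccctctTGTTTACactcctggtg
The first motif was present in 2 of the 13 windows of the 10 genes and in 6.28% of the 32851 windows of all genes, and the second in 1 of 13 and 3.65%. Distances are counted from the RefSeq start, which can differ from the start of the GENCODE M21 span given below for each gene. For Irs2 the site lies further from that span (chr8:10984681-11008458) than the 37 bases counted from the RefSeq start. A match of 7 letters is a description of the sequence and does not show that a factor binds there.

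None of the 10 genes passed the test for a difference between the diets. Over all genes tested, 213 of 15949 passed (edgeR quasi-likelihood test, Benjamini-Hochberg adjusted p under 0.05), which is 1.34%, so that a set of 10 genes with none passing lies near the background. At an unadjusted p under 0.05 the count was again 0 of 10, against 17.8% of all genes, and by DESeq2 it was also 0 of 10 at either threshold. No gene of the 10 had normalized counts that separated the diets without overlap, against 4.34% of all genes. The log2 fold changes, ketogenic over control, ran from -0.08 (Akt2) to 0.06 (Pik3r1), with 4 above and 6 below 0 and a median of -0.02, beside a median of -0.0057 over all tested genes. The median size of the change, whatever its sign, was 0.0388 on the log2 scale for the 10 genes and 0.114 for all genes, and 37.4% of all genes changed by no more than the gene of the 10 that changed most. The standard errors had a median of 0.0928, against 0.111 for all genes.

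**Figure D1:**
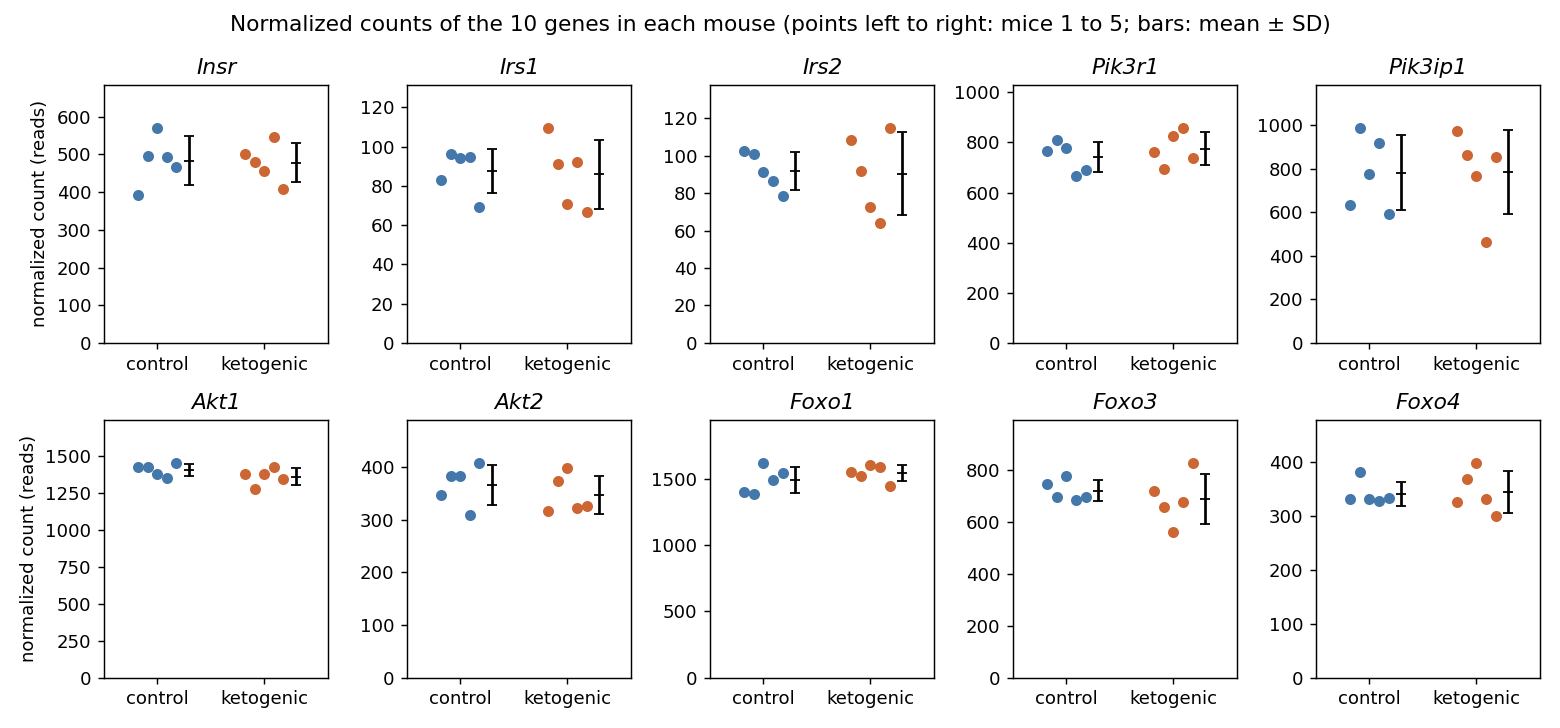
Normalized counts (reads, linear axis from 0) of the 10 genes in each mouse, with control mice in blue, ketogenic mice in orange, points from left to right for mice 1 to 5, and bars for the mean ± SD of each diet (n = 5). The points of the diets overlap in all 10 panels, and Pik3ip1 shows the widest spread, from 464 to 988.

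At the receptor step, the transcript of the insulin receptor itself showed no difference between the diets beyond the spread of the mice. Insr (ENSMUSG00000005534.9, chr8:3122061-3279617, minus strand) had normalized counts, which are reads scaled to a common library size, of 392, 496, 570, 494 and 468 in control mice 1 to 5 and of 501, 479, 456, 547 and 407 in ketogenic mice 1 to 5. Both the lowest and the highest mouse were on the control diet, so the ketogenic values lay wholly inside the control range. The means were 484 ± 64.1 and 478 ± 52.0 (SD, n = 5 each), the log2 fold change was -0.02 ± 0.103 (SE), and its 95% interval allowed a fold of 0.845 to 1.15 (adjusted p = 0.947).

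The adaptors IRS1 and IRS2 dock onto the active receptor and carry its signal to PI3-kinase. Irs1 (ENSMUSG00000055980.2, chr1:82233101-82291416, minus strand) gave 83.2, 96.3, 94.2, 94.7 and 69.4 normalized counts on the control diet and 110, 91.0, 70.7, 92.3 and 66.5 on the ketogenic diet. The ketogenic mice held both the highest and the lowest of the 10 values, and the log2 fold change was -0.03 ± 0.160 (SE, adjusted p = 0.951), with an interval of 0.771 to 1.25 in fold. Irs2 (ENSMUSG00000038894.6, chr8:10984681-11008458, minus strand), the gene of the adaptor known to rise in liver when insulin is low, gave 103, 101.1, 91.1, 86.3 and 78.5 on the control diet and 108, 92.0, 72.6, 64.1 and 115 on the ketogenic diet. Here too the ketogenic values spread on both sides of the control values, with means of 91.9 ± 10.1 and 90.4 ± 21.98 (SD). The log2 fold change of Irs2 was -0.02 ± 0.170 (SE, adjusted p = 0.962), and its interval allowed a fold of 0.761 to 1.27. Both adaptors rested on few reads, 69 to 111 per library for Irs1 and 66 to 126 for Irs2, and counting alone would give a coefficient of variation (CV) of 10.7% and 10.5%, beside 17.1% and 18.9% measured within diets. Each shares exon bases with a gene on the opposite strand (Gm9747 for Irs1, 9530052E02Rik for Irs2), and the strand setting of the counting is not given in the sources used here, so reads of the partners cannot be told apart.

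Pik3r1 and Pik3ip1 encode proteins that hold PI3-kinase in check in different ways. Pik3r1 (ENSMUSG00000041417.15, chr13:101680563-101768217, minus strand), which encodes the regulatory subunits p85α, p55α and p50α that bind the catalytic subunit, had 768, 808, 779, 666 and 691 normalized counts in control mice and 762, 694, 828, 858 and 738 in ketogenic mice. The highest values, in ketogenic mice 3 and 4, exceeded every control value, but 3 of the 5 ketogenic mice lay below the control median. The log2 fold change was 0.06 ± 0.0742 (SE, adjusted p = 0.690), with an interval from a fold of 0.934 to 1.17.

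Pik3ip1 (ENSMUSG00000034614.14, chr11:3330401-3342971, plus strand) encodes a membrane protein that binds the catalytic subunit and inhibits it. Its normalized counts were 634, 988, 777, 919 and 593 in control mice and 974, 865, 767, 464 and 854 in ketogenic mice. This was the most variable of the 10 genes: the highest mouse, on the control diet, had 2.13 times the value of the lowest, on the ketogenic diet. The CV within diets was 23.4%, where counting alone would give 3.57%. The means were 782 ± 172 and 785 ± 194 (SD), and the 95% interval of the fold reached from 0.753 to 1.33 (log2 fold change 0.0035 ± 0.189 SE, adjusted p = 0.995). Pik3ip1 shares exon bases with Gm12592 on the opposite strand.

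The AKT kinases are the central effectors of the pathway. Akt1 (ENSMUSG00000001729.14, chr12:112653821-112674884, minus strand), the main AKT gene of ECs, was the steadiest of the 10, with 1425, 1422, 1376, 1351 and 1452 normalized counts in control mice and 1373, 1271, 1375, 1424 and 1341 in ketogenic mice. In 4 of 5 ketogenic mice the value was below the control median, but the ranges overlapped. The means were 1405 ± 41.1 and 1357 ± 56.2 (SD), and the CV within diets of 3.58% was close to the 2.69% that counting alone would give. The log2 fold change of -0.05 ± 0.0404 (SE) had the smallest p of the 10 genes (unadjusted p = 0.236, adjusted p = 0.545), and an exact two-sided permutation test over the mice gave p = 0.135, where the smallest p that 5 against 5 mice allow is 0.00794. The interval of Akt1 allowed a fold of 0.909 to 1.03, the narrowest of the 10.

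Akt2 (ENSMUSG00000004056.15, chr7:27591552-27640826, plus strand), the kinase through which insulin drives glucose uptake in muscle and fat, had 347, 382, 383, 310 and 408 normalized counts in control mice and 317, 373, 399, 322 and 325 in ketogenic mice. The lowest and highest values were again both on the control diet. Its log2 fold change of -0.08 ± 0.0958 (SE, adjusted p = 0.709) was the lowest of the 10, and the interval ran from a fold of 0.820 to 1.10.

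FOXO1, FOXO3 and FOXO4 are transcription factors that AKT keeps out of the nucleus when insulin is present. Foxo1 (ENSMUSG00000044167.6, chr3:52268336-52353221, plus strand) had 1405, 1384, 1623, 1490 and 1548 normalized counts in control mice and 1555, 1520, 1606, 1593 and 1451 in ketogenic mice. Of the ketogenic mice, 4 of 5 lay above the control median, yet the highest mouse of all was on the control diet. The means were 1490 ± 99.3 and 1545 ± 62.6 (SD), for a log2 fold change of 0.05 ± 0.0504 (SE, adjusted p = 0.621) and an interval of 0.961 to 1.12 in fold. Gm20402 shares exon bases with Foxo1 on the opposite strand.

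Foxo3 (ENSMUSG00000048756.11, chr10:42181841-42276755, minus strand) gave 747, 698, 776, 683 and 695 normalized counts in control mice and 720, 659, 562, 678 and 828 in ketogenic mice. The ketogenic group held both extremes, mouse 3 low and mouse 5 high, and its SD was 97.0 around a mean of 689, beside 39.97 around 720 in control mice. The log2 fold change was -0.06 ± 0.0897 (SE, adjusted p = 0.760). Foxo4 (ENSMUSG00000042903.8, chrX:101254528-101260873, plus strand) gave 332, 380, 331, 327 and 333 in control mice, where 4 mice lay close together and mouse 2 stood above them, and 326, 369, 399, 331 and 299 in ketogenic mice. Its log2 fold change was 0.02 ± 0.0883 (SE, adjusted p = 0.947), with an interval of 0.885 to 1.16 in fold.

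**Figure D2:**
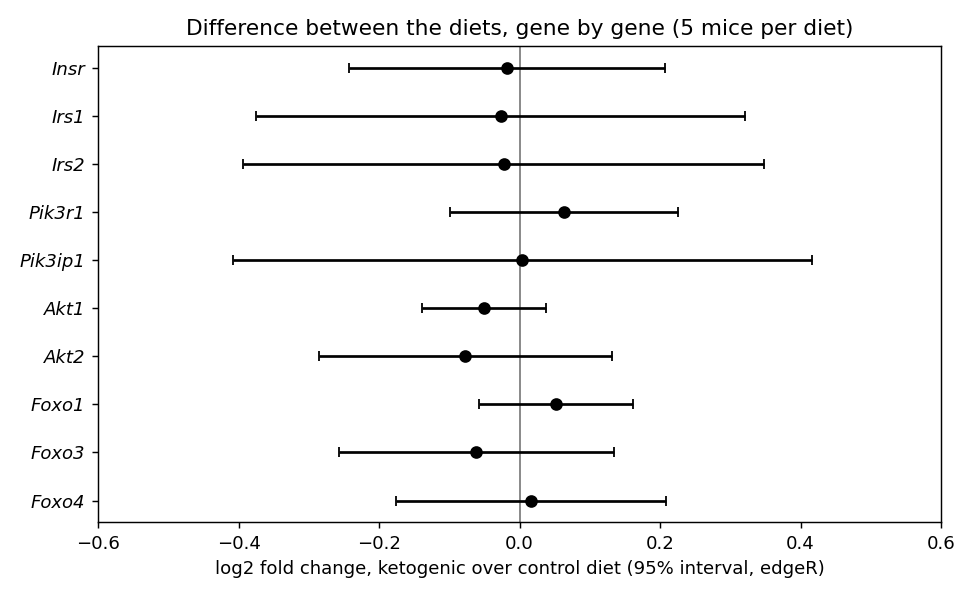
Log2 fold change of each of the 10 genes, ketogenic over control diet (x axis), with points for the edgeR estimate and bars for its 95% interval (5 mice per diet). All 10 intervals include 0, Akt1 has the narrowest (-0.14 to 0.04) and Pik3ip1 the widest (-0.41 to 0.42).

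Within families, the balance between relatives was compared in each mouse, since a ratio within a library does not depend on how libraries are scaled. The log2 ratio of counts of Irs2 to Irs1 differed between the diets by -0.01 (ketogenic minus control), that of Akt2 to Akt1 by -0.02, that of Foxo1 to Foxo3 by 0.13 and that of Pik3ip1 to Pik3r1 by -0.07. None of the 4 passed an exact two-sided permutation test over the 10 mice (p = 0.960, 0.857, 0.357 and 0.810, and 0.960 for each after adjustment over the 4 ratios). The Foxo1 to Foxo3 ratio was 1.05 ± 0.10 on the log2 scale in control mice and 1.17 ± 0.254 in ketogenic mice (SD, n = 5), and leaving out 1 mouse at a time moved the difference from 0.041, without ketogenic mouse 3 (the lowest Foxo3), to 0.22, without ketogenic mouse 5 (the highest Foxo3). The latter gave an unadjusted exact permutation p of 0.0397, the smallest among the leave-outs of the 4 ratios.

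The 10 genes did not stand at 1 level in these cells. In RPKM as deposited, which are reads scaled to library depth and gene length, averaged over the 10 mice, the order was Akt1 18.9 ± 0.714 (SD, n = 10), Foxo1 15.02 ± 0.852, Pik3ip1 7.43 ± 1.64, Foxo4 6.56 ± 0.587, Foxo3 5.39 ± 0.551, Pik3r1 4.86 ± 0.415, Insr 3.74 ± 0.431, Akt2 2.28 ± 0.238, Irs2 1.94 ± 0.345 and Irs1 0.814 ± 0.131. Akt1 thus lay higher than 79.1% of tested genes and Irs1 higher than 14.6%. Akt1 was above Foxo1, Foxo1 above Pik3ip1, Insr above Akt2, and Irs2 above Irs1 in 10 of 10 mice with ranges that did not overlap. The neighbours from Pik3ip1 down to Insr had overlapping ranges, as did Akt2 and Irs2, and Pik3ip1 exceeded Foxo4 in only 6 of 10 mice.

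The gene lengths behind the deposited RPKM equalled the sum of all distinct exons, overlapping ones included, for 41.3% of 9572 genes compared and the merged exon length for 21.2%. When the same reads were divided by the merged exon length of GENCODE M21 instead, the order was Akt1 28.9, Pik3ip1 15.7, Foxo1 15.02, Foxo4 8.43, Foxo3 7.98, Pik3r1 6.46, Akt2 4.29, Insr 3.001, Irs2 1.24 and Irs1 0.814 RPKM on that length. Pik3ip1 moved level with Foxo1 (higher in 5 of 10 mice), and Akt2 changed places with Insr, exceeding it in 10 of 10 mice. Irs2 stayed above Irs1 in 10 of 10 mice, but on this length their ranges overlapped. Akt1 remained first and Irs1 last by either length, so that among the 10 genes a kinase stood at the high end and the adaptors at the low end.

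**Figure D3:**
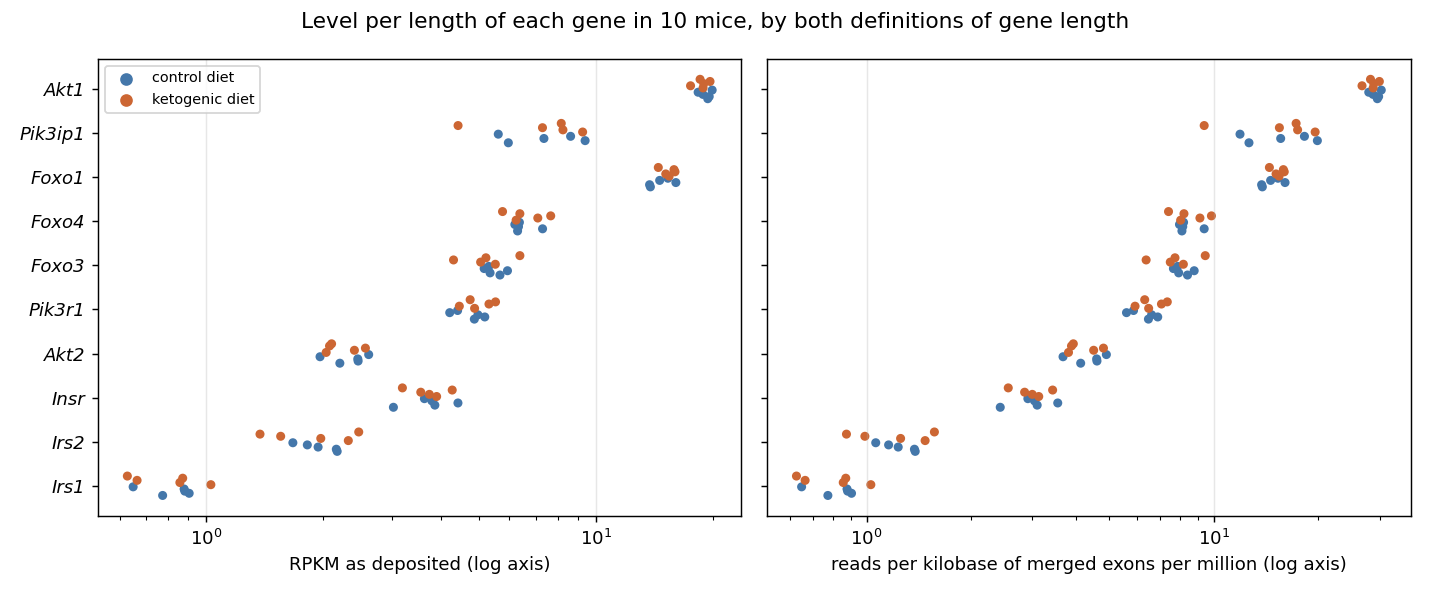
Level per length of the 10 genes in each of 10 mice (log axis), left as deposited RPKM and right per kilobase of merged exons, with blue for control and orange for ketogenic mice. Akt1 is highest and Irs1 lowest in both panels, Pik3ip1 and Foxo1 as well as Akt2 and Insr exchange places between the panels, and the colours intermingle in every row.

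The receptor, adaptor, regulatory subunit and FOXO genes were then each set against their own family, relatives outside the 10 included, as a share of the family's summed level per merged exon length in each mouse. Among FOXO factors, Foxo1 made up a median of 48.3% (range over the mice 44.2 to 49.9), Foxo4 26.2% and Foxo3 25.4%, while Foxo6, known from brain, had 0 to 8 reads per library.

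The IRS sum divided into Irs1 with 21.8%, Irs2 with 33.3% and Irs3 with 45.6%, although Irs3, an adaptor gene of rodents, rested on only 20 to 66 reads per library and on a short length. The share of Irs3 was 26.4 to 46.8% in control and 43.0 to 57.5% in ketogenic mice, and its log2 fold change was 0.46 ± 0.237 (SE, adjusted p = 0.336). With the deposited lengths Irs2 led instead (50.6%, Irs3 28.2%), so the order of Irs2 and Irs3 depends on the length chosen. Irs4 had 0 reads in every mouse. Insr made up 39.1% of the sum with Igf1r, the related receptor for insulin-like growth factor (17.6% with the deposited lengths), so Igf1r was the larger by either length, with 3.61 to 5.97 RPKM on merged exons against 2.43 to 3.55 for Insr. Igf1r had a log2 fold change of 0.0043 (adjusted p = 0.992).

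Of the regulatory subunits of PI3-kinase, Pik3r1 made up 12.1% and Pik3r2 6.44%, and Pik3r3, which encodes the short subunit p55γ, 81.5% (78.7 to 84.4). Pik3r3 had 2267 to 3482 reads per library against 633 to 883 for Pik3r1, and the share was 82.7% with the deposited lengths. Pik3r3 shares exon bases with the protein-coding gene Gm49337 on the same strand, and how the counting split their reads is not given in the sources used here, so its level is uncertain.

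**Figure D4:**
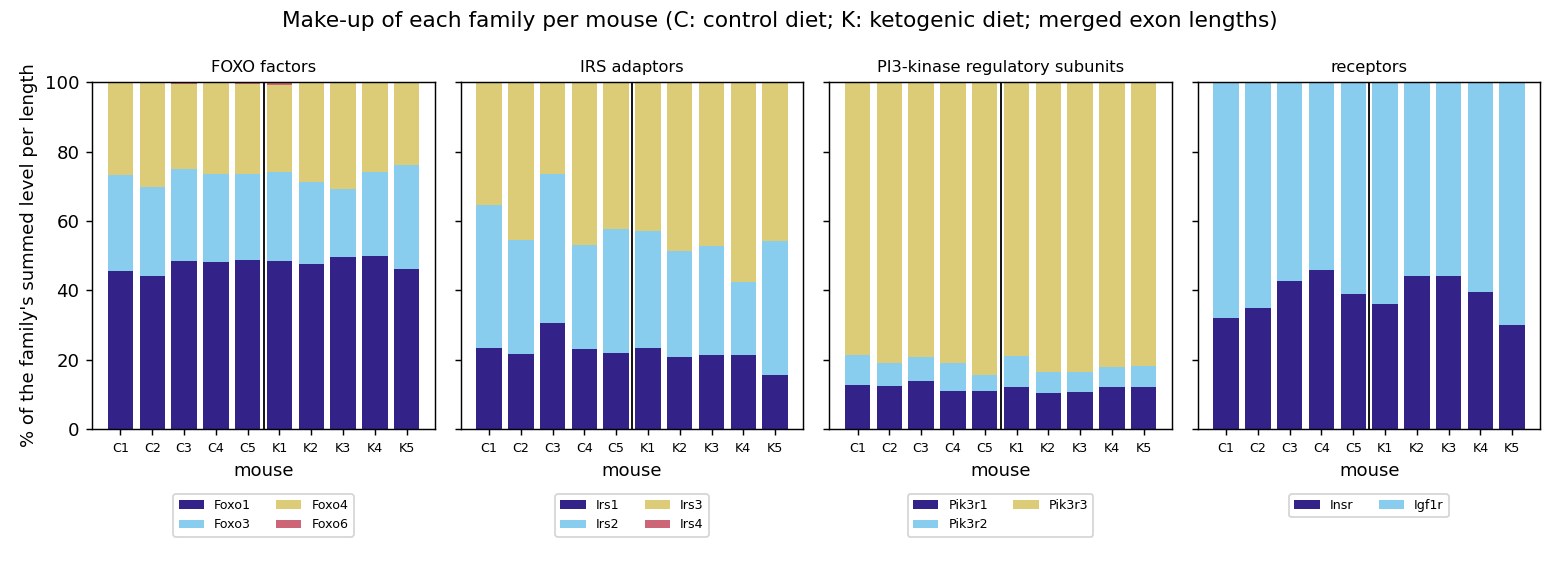
Share of each family's summed level per merged exon length (percent, y axis) in each mouse (x axis, C for control and K for ketogenic, divided by a line), stacked by gene for FOXO factors, IRS adaptors, PI3-kinase regulatory subunits and receptors. Foxo1, Pik3r3 and Igf1r hold the largest median share in their panels on both diets, and Irs3 varies most among the adaptors, from 26.4 to 46.8% in control and 43.0 to 57.5% in ketogenic mice.

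Apart from diet, the 10 genes varied among the mice in different directions. With each diet's mean removed, Pearson correlations of log2 CPM over the 10 mice, which share library depth and preparation, were highest for Irs2 with Pik3ip1 (r = 0.683), Akt2 with Foxo4 (0.667) and Insr with Foxo1 (0.660). They were lowest for Foxo3 with Foxo4 (-0.83), Irs2 with Foxo1 (-0.62) and Pik3ip1 with Akt1 (-0.615). Irs1 and Irs2 were hardly related (0.127), nor were Akt1 and Akt2 (0.0736). Among all tested genes, those whose pattern over the 10 mice was most like that of Akt1 were Cbfb (r = 0.963), Rnf170 (0.942) and Ppp6r3 (0.940). For Pik3ip1, added after its spread was seen, they were Arsb (0.947), Igkv5-39 (0.940) and Sugp2 (0.933), of which Igkv5-39, an immunoglobulin segment, had 4 to 25 reads per library. These are the highest of many correlations over 10 points and are given as a description.

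The remaining genes of the pathway gave 1 call among 62 tested genes, for Nos3. None of the 62 passed in the higher direction, against 0.809% of all genes, and 1 passed in the lower direction, against 0.527%. At an unadjusted p under 0.05, 5 were higher (8.57% of all genes) and 7 lower (9.26%), and the median log2 fold change was -0.0041, with 31 genes on each side of 0. The pathway list therefore lay near the background of all genes.

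Nos3, which encodes endothelial nitric oxide synthase, an enzyme that AKT activates by phosphorylation, fell on the ketogenic diet. Its normalized counts were 2260, 2279, 2055, 2361 and 2006 in control mice and 1967, 1821, 1725, 1776 and 1851 in ketogenic mice. Every ketogenic mouse lay below every control mouse, with means of 2192 ± 154 and 1828 ± 91.0 (SD), a log2 fold change of -0.26 ± 0.0527 (SE) and an adjusted p of 0.0375. The call was lost without any 1 of control mice 1, 2 or 4 or ketogenic mice 3, 4 or 5, without ketogenic mice 1 and 4 together (adjusted p = 0.110), and when a cardiomyocyte marker score (log2 fold change -0.18, adjusted p = 0.258) or a fibroblast marker score (adjusted p = 0.131) entered the fit. Nos3 shares exon bases with Atg9b and Gm15587 on the opposite strand.

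At the level of the receptor, 17 genes were tested and none passed. The smallest p belonged to Grb14, an adaptor that binds the active insulin receptor and inhibits it, with 56.8 to 87.7 normalized counts in control mice and 100.2 to 115 in ketogenic mice. These ranges did not overlap, but the log2 fold change of 0.57 ± 0.134 (SE) had an adjusted p of 0.0614. Enpp1, a membrane enzyme known to hinder the receptor, had a log2 fold change of -0.58 (adjusted p = 0.167, at 26 to 69 reads per library).

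Among 13 genes of PI3-kinase and the lipid phosphatases none passed. The smallest p values were those of Inpp5d, a lipid phosphatase abundant in blood cells (log2 fold change -0.12, adjusted p = 0.271), and Pik3r3 (0.17, adjusted p = 0.281). Inpp5d is also a leukocyte gene, and the lymphocyte sums given above were lower in every ketogenic mouse than in every control mouse, while the macrophage sums overlapped. Inpp5d passed under none of 22 alternatives, among them the fit with the macrophage score (log2 fold change -0.164 to -0.067, adjusted p at least 0.244). The part of lymphocytes in its value was not tested.

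In the group of 22 genes around AKT and mTOR, none passed either. Mlst8, a subunit of both mTOR complexes, had a log2 fold change of 0.21 (adjusted p = 0.113), Rictor, the subunit that defines the mTOR complex that phosphorylates AKT, one of -0.25 (adjusted p = 0.130), and Deptor, an inhibitor of mTOR, one of -0.31 (adjusted p = 0.130). Of the 10 other AKT substrates, Nos3 was the single one to pass. It was followed by Tbc1d1, a brake on glucose transporter traffic (log2 fold change 0.20, adjusted p = 0.122), and Gsk3a, a glycogen synthase kinase (-0.28, adjusted p = 0.154). The ranges of both did not overlap between the diets, for Tbc1d1 only barely (highest control mouse 1306.2, lowest ketogenic mouse 1306.9 normalized counts). Mlst8, Deptor and Gsk3a each share exon bases with a gene on the opposite strand.

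Genes whose products move or modify FOXO proteins gave no call among 20 tested, where 1.34% of all genes passed. At an unadjusted p under 0.05, 4 of the 20 were higher, against 8.57% of all genes, and 2 lower, against 9.26%, with a median log2 fold change of -0.05. Sgk3, a kinase related to AKT that depends on PI3-kinase, came nearest, with 791 to 879 normalized counts in control mice and 896 to 1042 in ketogenic mice. Its ranges did not overlap, and its log2 fold change of 0.24 ± 0.0531 (SE) had an adjusted p of 0.0525. Xpo1, the export receptor that carries FOXO proteins out of the nucleus, had 0.16 (adjusted p = 0.156), and Sirt1, a deacetylase that acts on FOXO proteins, -0.26 (adjusted p = 0.159). Sirt1 shares exon bases with Gm16145 on the opposite strand.

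Of the 31 genes listed as textbook targets of FOXO factors, 26 were tested and 1 passed, Pdk4, in the higher direction, in which 0.809% of all genes passed. The 5 others, Fasl, Igfbp1, Pck1, G6pc and Apoc3, the last 4 of them known from liver, had at most 29 reads in any library. Pdk4, a kinase that shuts pyruvate out of the mitochondrial oxidation of glucose, had 483, 641, 693, 555 and 615 normalized counts in control mice and 1474, 1440, 1654, 1622 and 1903 in ketogenic mice. The lowest ketogenic mouse had more than the highest control mouse, and the rise of 1.44 ± 0.10 (SE) on the log2 scale had an adjusted p of 1.03e-04. Pdk4 is also a known target of the fatty acid receptors of the PPAR family.

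None of the other 25 tested targets passed. Over all 26, the median log2 fold change was 0.02, with 14 above and 12 below 0, and at an unadjusted p under 0.05 the list had 5 higher (8.57% of all genes) and 7 lower (9.26% of all genes), 12 of 26 in either direction where all genes gave 17.8%. Angpt2, the angiopoietin that FOXO1 is known to switch on in ECs, had 2332 to 2715 normalized counts in control mice and 1945 to 2318 in ketogenic mice, without overlap (log2 fold change -0.20 ± 0.0562 SE, adjusted p = 0.10). Sesn3, a stress-response gene used as a readout of FOXO activity, had a log2 fold change of 0.93 (adjusted p = 0.132) on only 7 to 33 reads per library. In the RefSeq windows of the target genes, the CAAAACA motif shown above occurred in 3 of 33 windows (6.28% of all windows) and the GTAAACA motif in 5 of 33 (3.65% of all windows), windows being at hand for 27 of the 31 genes.

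**Figure D5:**
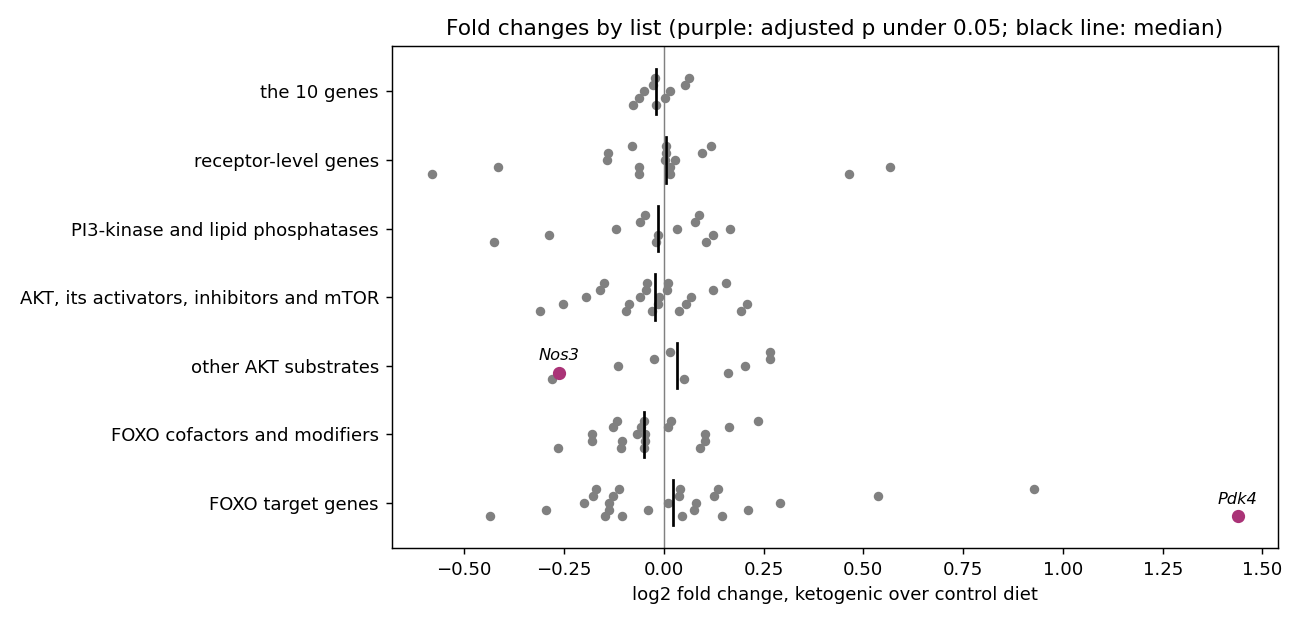
Log2 fold change, ketogenic over control diet (x axis), of each tested gene of the 10 and of 6 lists (rows), with grey points for genes that did not pass, purple for genes with an adjusted p under 0.05 and a black line for the median of each row. The 10 genes lie between -0.08 and 0.06, and only Nos3 and Pdk4 are purple.

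The result for the 10 genes was the same under each of 22 other ways of running the comparison: none of the 10 passed after adjustment, and none had an unadjusted p under 0.05, in any of them. These included scores of cardiomyocyte, fibroblast and macrophage markers as covariates. Scores of platelet or lymphocyte markers were not entered, so the part of those cells was not tested. With the cardiomyocyte score in the fit, the log2 fold change of Irs2 was 0.28 and that of Irs1 0.09, and with the macrophage score that of Pik3ip1 was -0.21, so that the signs of these small differences were not stable. Across the alternatives the log2 fold change of Akt1 stayed below 0, between -0.08 and -0.03.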

How the data were processed

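Single reads of 50 bases from SMART-Seq v4 libraries of 10 mice were processed by the authors. The submitters' processing notes name bcl2fastq 2.17.1.14, STAR 2.3, HTSeq 0.6.0 and build mm10, and the annotation release, strand setting and handling of duplicate reads are not given in the sources used here. Raw reads of some genes hardly varied with depth, among them Hba-a1 (97 to 98), Cav1 (5131 to 5227) and Sgk1 (5092 to 5264). What this means for levels per length, family shares and the comparison of spread with counting was not tested. The authors deposited raw read counts per gene and RPKM computed from them with 1 length per gene.

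Versioned identifiers were matched to symbols without the version (46488 of 46983). Counts were fitted with edgeR 4.0.16 in R 4.3.3 (TMM, filterByExpr, quasi-likelihood F-test, two-sided, Benjamini-Hochberg adjustment over the 15949 genes tested), diet being the only term, and a gene was called at an adjusted p under 0.05. The script was tested on simulated data. DESeq2 1.42.0 and limma 3.58.1 on log2(RPKM + 1) and log2(RPKM + 0.1) were alternatives, together with other scalings and filters, marker scores as covariates, the replicate number as a block, and leaving out mice. Ratios used counts plus 0.5. Levels were compared between genes per length only. Positions and overlaps are from GENCODE M21 (GRCm38), and promoter windows from RefSeq.

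The 10 genes, the lists and the tests were chosen with earlier results of these data known, so no p is adjusted over the 10 genes alone. Besides the 10 genes, each list contributed its called genes, up to 6 by p, and with fewer than 3 called, the genes of smallest p up to 3 in all. The genes whose pattern was most like that of the member with the smallest p were named, 3 in number. Family relatives, Cd79a and liver target genes were named after their values were seen. Some genes that this rule selects are not reported here. Mice are separate animals, with 1 library each.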

Additional observations from a re-analysis of the deposited data

Results flagged for a closer look

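In control mice, Foxo4 had 1 mouse apart from the others: control mouse 2 had 380 normalized counts, beside 327 to 333 in the other 4. The gap to the nearest mouse was 0.896 of the whole range of the group, above the limit of Dixon's test for 5 samples (0.71). Of 28 groups of 5 mice examined this was the only one past the limit, where chance at 1 in 20 gives 1.4.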

How the results depend on the processing

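The count of 0 of the 10 genes held under all 22 alternatives. The number of genes called over all genes was 213, and became 819 by DESeq2, 51 with the cardiomyocyte score, 59 with the fibroblast score, 41 without ketogenic mice 1 and 4 (an alternative chosen after earlier results were known, as was the merged exon length) and 86 to 492 when 1 mouse was left out, the highest without ketogenic mouse 2 and the lowest without control mouse 2. The replicate number as a block gave 113 calls, 90 of them shared, and no pathway gene. Nothing in the labels pairs the mice and same-numbered mice correlated by -0.134 to 0.0936, so the numbers are names only, and no mouse correlated best with its own number. Pathway calls became 5 by DESeq2 (Deptor, Grb14, Mlst8, Nos3, Tbc1d1), 0 with the cardiomyocyte or fibroblast score and without ketogenic mice 1 and 4, and 0 to 2 with 1 mouse left out (2, Nos3 and Rictor, without ketogenic mouse 2). FOXO cofactors gave 1 call, Sgk3, with DESeq2 size factors, with library size alone, with at least 10 counts in every mouse and by DESeq2, and 0 to 1 with 1 mouse left out. FOXO targets gave 2 by DESeq2 (Angpt2 and Pdk4) and 1 to 2 with 1 mouse left out (2, Map1lc3b and Pdk4, without ketogenic mouse 2). Nos3 lost its call under 10 of 22 alternatives (adjusted p 0.00131 to 0.258), and Pdk4 under none (at most 0.00266).

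Small log2 fold changes among the 10 genes turned sign. With the cardiomyocyte score Irs1 was 0.093, Irs2 0.28, Foxo1 -0.028, Foxo3 0.037 and Foxo4 -0.031. With the fibroblast score Irs2 was 0.14, Pik3r1 -0.010 and Foxo4 -0.0072, and with the macrophage score Pik3ip1 was -0.21 and Foxo4 -0.0020. Pik3ip1 was -8.85e-05 with at least 10 counts in every mouse and -0.0047 with the block. Without ketogenic mice 1 and 4, Irs2 was 0.024 and Akt2 4.06e-04. Leaving out 1 mouse at a time gave Insr -0.085 to 0.048, Irs1 -0.13 to 0.059, Irs2 -0.12 to 0.079, Pik3ip1 -0.083 to 0.14, Foxo3 -0.13 to 0.0096 and Foxo4 -0.036 to 0.068. It gave log2 ratio differences of -0.19 to 0.13 for Irs2 over Irs1, -0.076 to 0.018 for Akt2 over Akt1, 0.041 to 0.22 for Foxo1 over Foxo3 and -0.17 to 0.14 for Pik3ip1 over Pik3r1. The cause of these shifts was not tested. Levels per merged exon length were 3.001 for Insr, 1.24 for Irs2, 6.46 for Pik3r1, 15.7 for Pik3ip1, 28.9 for Akt1, 4.29 for Akt2, 7.98 for Foxo3 and 8.43 for Foxo4, and differ from the RPKM by the length alone.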
